A study of Kalanchoe laxiflora with 7 samples.

Results

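The 3 gene models described here are KlaxMUTE1 (KlGene012921), its paralog KlaxMUTE2 (KlGene023418) and a gene annotated as similar to cyclin D3-2 (KlGene000830, cyclin D3-2-like hereafter). They were chosen by identifier from the 27768 gene models of the succulent Kalanchoë laxiflora, and all 3 passed the filter of at least 10 counts over all libraries. RNA came from the mature seventh leaf pair of 4 wild-type plants of the OBG accession and of 3 plants overexpressing KlaxMUTE1 (KlaxMUTE1 OE). In the latter, the 35S promoter, which is active in most plant cells, drives mCitrine fused to KlaxMUTE1. According to the study's methods, each KlaxMUTE1 OE replicate is an independent transgenic line. A line is therefore represented by 1 library, and differences between lines have no replicate of their own. The lines also went through transformation, and this cannot be told apart from the effect of the transgene in these libraries. Plant age and growth stage beyond the leaf pair were not used here.

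MUTE proteins are basic helix-loop-helix transcription factors of the stomatal lineage. In Arabidopsis thaliana, MUTE ends the asymmetric divisions of the lineage and commits cells to become guard mother cells, and it acts in part through cell-cycle genes. In K. laxiflora, the study examines both paralogs in the divisions that form the subsidiary cells around the guard cells. D-type cyclins bind cyclin-dependent kinases and promote entry into S phase, and D3 cyclins are known in Arabidopsis for keeping leaf cells dividing. The question asked here was whether the paralog and the cyclin followed the KlaxMUTE1 level from line to line, and whether they varied together among the wild-type plants.

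Both KlaxMUTE2 and cyclin D3-2-like were higher in KlaxMUTE1 OE than in wild type, but neither was ordered by the KlaxMUTE1 level. KlaxMUTE1 was highest in line 3 and lowest in line 1. KlaxMUTE2 and cyclin D3-2-like were both highest in line 1, intermediate in line 3 and lowest in line 2. Among the wild-type plants, replicate 1 held the highest level of both. In RNA from a whole leaf, more cells expressing a gene and more RNA per cell cannot be told apart.

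Libraries held between 18665659 and 27216722 counted reads, and 21594 to 22664 gene models were detected in each. No library was a repeat of another, and over all gene models line 1 and wild-type replicate 1 stood apart within their groups. The chi-square per degree of freedom between libraries was 225 and 264.2 for line 1 against the other lines and 120.7 between lines 2 and 3. It was 59.1 to 91 for wild-type replicate 1 and 23.9 to 35 among the other wild-type plants. The photosynthetic genes that define a mature leaf summed to a high level in every library, although the sum was lower in KlaxMUTE1 OE. RBCS1-like made up most of the sum. The 4 listed genes, which include RBCS1-like and LHCB4.2-like, summed to 26309 to 27568 TPM (a level per length of gene model, with an equal total for every library) in wild type, and to 14944, 14795 and 23856 TPM in lines 1 to 3. RBCS1-like and PSAL-like overlapped between groups in TPM, whereas LHCB4.2-like and LHCII type I-like did not. LHCII type I-like was not abundant, at no more than 23.7 TPM in any library. The 2 listed genes of vascular tissue, CESA7-like and XSP1-like, summed to 2.92 to 3.74 TPM in wild type. In lines 1 to 3 they summed to 6.69, 10.2 and 8.06 TPM. Genes of the shoot apex and young leaf summed to 1.00 to 2.97 TPM in wild type and 1.02 to 1.80 TPM in KlaxMUTE1 OE, with none of the 4 at 0 in every library. The 2 epidermal wax genes summed to 49.2 to 112 TPM in wild type and 49.0 to 113 TPM in KlaxMUTE1 OE. The part of these shifts, and of the 2 libraries that stand apart, in the results on the 3 gene models was not tested.

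KlaxMUTE1, the gene driven by the transgene, had 0 counts in all 4 wild-type libraries. Lines 1, 2 and 3 had 16950, 38933 and 55802 counts. In TPM its level was 1195, 2220 and 3670, or 2362 ± 1243 TPM (SD, n = 3). It ranked 107th, 41st and 20th among all gene models of lines 1, 2 and 3, and took 0.0820%, 0.143% and 0.240% of their counts. The construct holds the genomic sequence of KlaxMUTE1, and reads from the transgene could not be told from endogenous ones. The wild-type zeros allow up to 3 counts a library, which corresponds to 0.167 to 0.223 TPM at these depths. Against that floor, taken over the group in CPM (counts scaled to the effective library size by TMM), the lines averaged at least 9834-fold higher. The lowest line was at least 5479-fold higher. This is the check of the overexpressed gene, and all 7 libraries matched their labels.

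The KlaxMUTE1 level differed between the lines by far more than counting error. Line 3 exceeded line 1 by 2.84-fold in CPM (exact 95% interval 2.79 to 2.89) and line 2 by 1.84-fold (1.82 to 1.87), and line 2 exceeded line 1 by 1.54-fold (1.51 to 1.57). These intervals, like all intervals on counts given below, cover counting error only. The libraries were amplified by PCR, and the sources used here describe no removal of PCR duplicates. In addition, 1 library a line gives no error for the line itself.

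**Figure D1:**
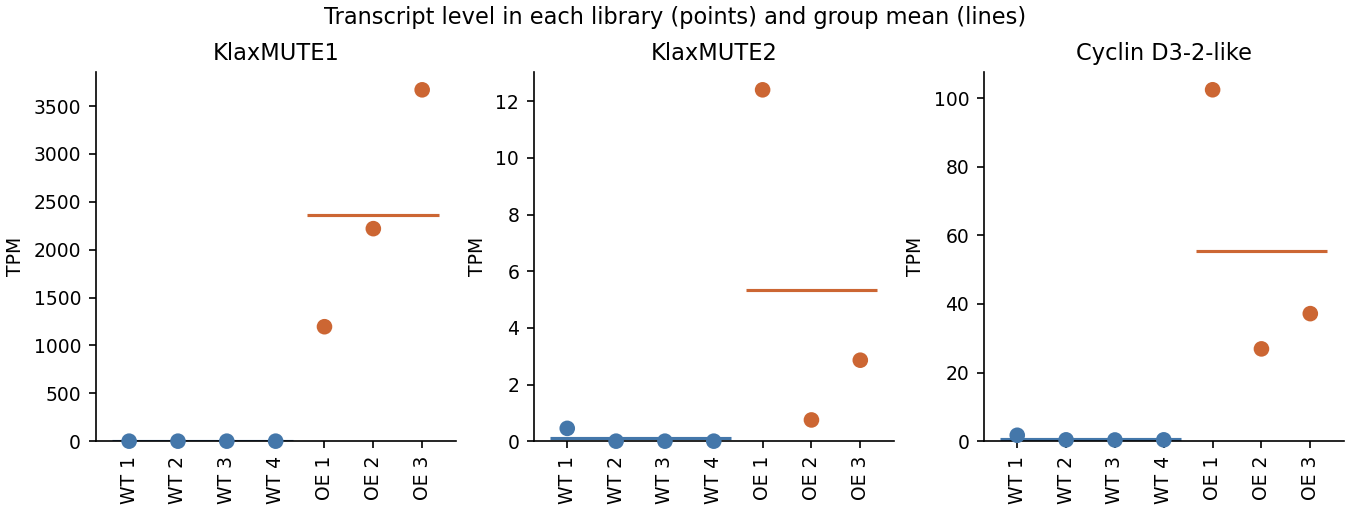
Level of each gene model in TPM (y axis, linear, a separate scale for each panel) in the 4 wild-type (WT) and 3 KlaxMUTE1 OE (OE) libraries, with points for libraries and lines for group means. KlaxMUTE1 climbs from 1195 TPM in line 1 to 3670 TPM in line 3, whereas KlaxMUTE2 and cyclin D3-2-like peak in line 1, at 12.4 and 102 TPM.

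KlaxMUTE2, the paralog, was close to the limit of detection in wild type, with 6 counts in replicate 1 and 0 in replicates 2, 3 and 4. Lines 1, 2 and 3 had 174, 13 and 43 counts. In TPM the level was 0.452 in wild-type replicate 1 and 12.4, 0.749 and 2.86 in lines 1 to 3, which averaged 5.34 ± 6.21 TPM (SD, n = 3) against 0.113 ± 0.226 TPM (SD, n = 4) in wild type. All 3 lines lay above all 4 wild-type plants, but line 2 only barely so. The ratio of line 2 to wild-type replicate 1 was 1.20 in CPM (exact 95% interval 0.426 to 3.85), a difference that was not detectable at this depth. Line 3 exceeded that wild-type plant by 5.11-fold (2.17 to 14.7) and line 1 by 23.9-fold (10.8 to 66.2).

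Over the groups, KlaxMUTE2 was higher in KlaxMUTE1 OE by a log2 fold change of 5.40 (SE 1.45, edgeR quasi-likelihood test, adjusted p = 0.0324 over the 21902 gene models tested). With an adjusted p under 0.1 and a log2 fold change over 1, 12.6% of all tested gene models were called higher, and 19.0% had all 3 lines above all 4 wild-type plants. All 3 gene models were called higher and did not overlap between groups. KlaxMUTE1 is the transgene itself, and the 3 were chosen with earlier results of these data known, so this is not a separate test. The size of the KlaxMUTE2 change rested on 2 libraries. Without line 1 its log2 fold change was 3.73, and without wild-type replicate 1, the only wild-type library with counts, it was 9.33. In the latter case all remaining wild-type counts were 0. The lines then averaged at least 25.2-fold above the floor of 3 counts a library, taken over the group. With both libraries left out, lines 2 and 3 averaged at least 7.87-fold above the same floor. Line 2, the lowest line, was at least 3.00-fold above it.

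Line 1 exceeded line 2 in KlaxMUTE2 by 19.9-fold in CPM (exact 95% interval 11.4 to 38.2) and line 3 by 4.69-fold (3.34 to 6.71). Line 3 exceeded line 2 by 4.25-fold (2.25 to 8.62). Each step in this order was therefore larger than counting error, and the lowest line was not the one with the least KlaxMUTE1. For 1000 TPM of KlaxMUTE1 there were 10.4, 0.338 and 0.779 TPM of KlaxMUTE2 in lines 1, 2 and 3, a 30.7-fold range. Reads of similar paralogs can be assigned to the wrong copy, and the sources used here do not say how reads that map to several places were handled. The part of such reads in the KlaxMUTE2 counts was not tested.

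Cyclin D3-2-like was detected in every library. Wild-type replicates 1 to 4 had 20, 6, 5 and 5 counts, and lines 1 to 3 had 1259, 409 and 490 counts. The TPM values were 1.72, 0.385, 0.349 and 0.387 in wild type and 102, 26.9 and 37.2 in lines 1 to 3, or 0.710 ± 0.673 TPM (SD, n = 4) against 55.5 ± 41.0 TPM (SD, n = 3). Every line lay well above every wild-type plant. Even against the highest wild-type plant, the excess in CPM was 52.0-fold (exact 95% interval 33.5 to 85.4) in line 1, 11.3-fold (7.24 to 18.8) in line 2 and 17.5-fold (11.2 to 28.8) in line 3. The log2 fold change between groups was 6.08 (SE 0.77, edgeR quasi-likelihood test, adjusted p = 0.00311). It was 5.18 without line 1, 6.93 without wild-type replicate 1, and 6.06 without both.

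By TPM, the cyclin ranked 16839th to 19405th in wild type, or 77.9% to 89.3% of the way down the detected gene models. It ranked 1481st, 6201st and 4185th in lines 1, 2 and 3, or 6.66%, 27.4% and 18.8% of the way down. Line 1 exceeded line 2 by 4.59-fold in CPM (exact 95% interval 4.10 to 5.14) and line 3 by 2.98-fold (2.68 to 3.31), and line 3 exceeded line 2 by 1.54-fold (1.35 to 1.76). All neighbours in the order 1, 3, 2 were thus separated by more than counting error.

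The order of the lines was shared by KlaxMUTE2 and cyclin D3-2-like, but the size of the steps was not. For 1000 TPM of KlaxMUTE1 there were 85.7, 12.1 and 10.1 TPM of cyclin D3-2-like in lines 1 to 3, an 8.46-fold range. The cyclin level was 8.26, 35.9 and 13.0 times the KlaxMUTE2 level in the same lines, a 4.35-fold range. This was the narrowest observed range of the 3 ratios. Line 2 had only 13 KlaxMUTE2 counts, however, and no interval was computed for these ranges. In wild-type replicate 1, the only such plant where it could be formed, the cyclin to KlaxMUTE2 ratio was 3.80, from 20 and 6 counts. The spread over the 3 lines, as a coefficient of variation of CPM, was 52.7% for KlaxMUTE1, 81.4% for cyclin D3-2-like and 121% for KlaxMUTE2.

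**Figure D2:**
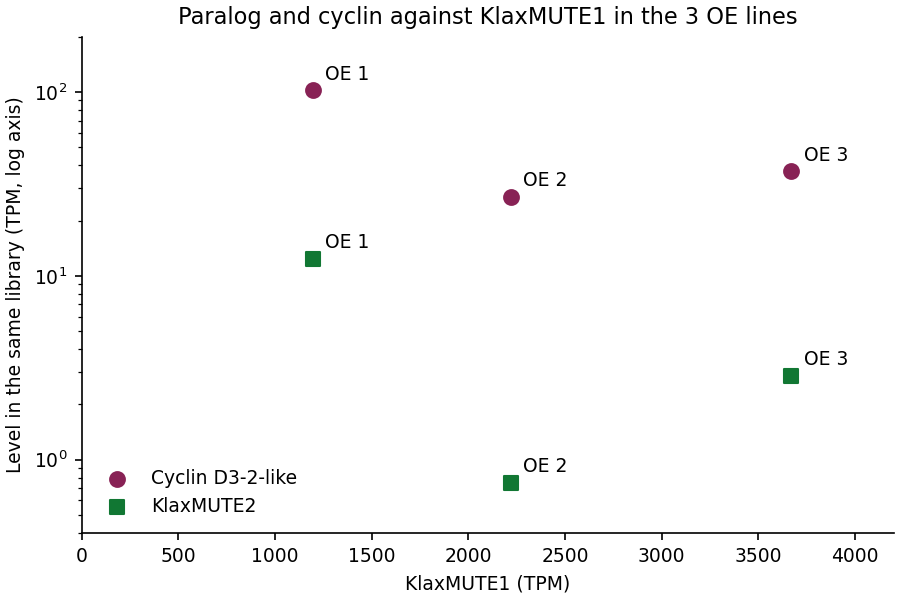
TPM of cyclin D3-2-like (circles) and KlaxMUTE2 (squares) on a log axis against the TPM of KlaxMUTE1 on a linear axis, for the 3 KlaxMUTE1 OE lines. The line with the least KlaxMUTE1 (line 1, 1195 TPM) has the most of both genes, and line 2 has the least of both, 26.9 and 0.749 TPM.

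The order 1, 3, 2 was the most common of the 6 possible orders and was not particular to these genes. Of all tested gene models, 21.5% had the lines in the order 1, 3, 2 from high to low, and 16.4% had the order 3, 2, 1 of KlaxMUTE1. Among the 2761 gene models called higher in KlaxMUTE1 OE, the shares were 30.5% and 10.1%. Line 1 was the highest of the lines in 49.7% of these and line 3 in 21.0%, against 41.2% and 28.7% of all tested gene models. Line 1 was the highest by at least 2-fold over both other lines in 25.7%, as in KlaxMUTE2 and cyclin D3-2-like. For line 2 and line 3 the latter share was 13.5% and 4.64%. Over all tested gene models it was 8.38%, 7.61% and 3.30% for lines 1 to 3. Line 1, the line with the least transgene RNA, was thus more often the highest line than line 3, the line with the most. This held among the raised genes and over all tested gene models.

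The wild-type plants, which carry no transgene, differed among themselves in the same 2 genes. Cyclin D3-2-like was 1.14 CPM in wild-type replicate 1 and 0.248, 0.234 and 0.247 CPM in replicates 2, 3 and 4. Replicate 1 exceeded the pooled level of the others by 4.70-fold (exact 95% interval 2.31 to 9.70), while replicates 2 to 4 were alike within a few reads. KlaxMUTE2 was 0.343 CPM in replicate 1 and 0 in the others. Replicate 1 held 21.0% of the scaled wild-type reads and all 6 KlaxMUTE2 counts, which is beyond counting error (exact binomial test, two-sided p = 8.58e-05). For both genes this library was singled out after its values were seen, and the KlaxMUTE2 difference rests on 6 reads. KlaxMUTE1 was at 0 in all 4 plants and could not be compared with either gene in wild type.

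Replicate 1 was often the highest wild-type library. It was the highest of the 4 in 30.5% of all tested gene models and in 42.4% of those called higher in KlaxMUTE1 OE. It was at least 2-fold above each other wild-type plant, as for the 2 genes here, in 2.26% of the tested and 6.81% of the raised gene models. The joint pattern of KlaxMUTE2 and cyclin D3-2-like, with wild-type replicate 1 highest and the lines in the order 1, 3, 2, was found in 14.7% of the raised and 7.23% of all tested gene models. With 4 plants in wild type, 3 of them at or near the same low value, no correlation was computed.

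**Figure D3:**
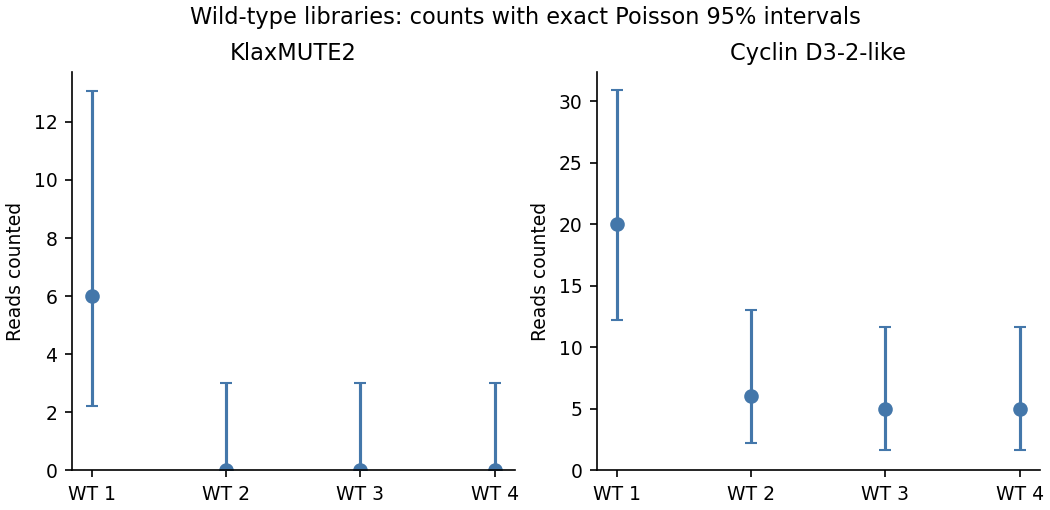
Reads counted for KlaxMUTE2 and cyclin D3-2-like (y axis, linear, a separate scale for each panel) in the 4 wild-type libraries, with exact Poisson 95% intervals or, for a count of 0, an upper limit of 3 counts. Replicate 1 is the highest for both, with 6 and 20 counts.

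Other genes of the cell cycle were examined to see whether they resembled the cyclin. Of 17 such gene models identified by their annotation, 14 passed the filter, 4 were called higher and none lower. The annotation used covered 1190 of the 27768 gene models, so cell-cycle genes outside it, other D3 cyclins included, were not examined here. The median log2 fold change of the 14 was 1.06, against 0.07 over all tested gene models, and background shares of 12.6% higher and 7.60% lower apply. The log2 fold change of cyclin D3-2-like was larger than that of any of the 14, a difference that was not tested. The 4 raised genes were MCM7-like and a POLA2-like gene, both of DNA replication, the B-type cyclin gene Cyclin-B2-4-like and the kinesin gene ATK4-like.

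Of the replication genes, MCM7-like, a subunit of the replicative helicase, was counted 5, 18, 18 and 15 times in the wild-type plants, compared with 76, 58 and 63 times in lines 1 to 3. Its log2 fold change was 2.01 (SE 0.44, edgeR adjusted p = 0.0164). One of 3 gene models similar to POLA2, the accessory subunit of DNA polymerase alpha, rose from 4, 2, 2 and 6 counts to 29, 27 and 21 in lines 1 to 3 (log2 fold change 2.53, edgeR adjusted p = 0.0184). The other POLA2-like gene models were under the filter of 10 counts. With no filter one of them, with 0 counts in all 4 wild-type plants and 1, 5 and 3 in lines 1 to 3, was called higher too (edgeR adjusted p = 0.0730). MCM7-like and the tested POLA2-like gene separated the groups fully, at low levels, but on log2(TPM + 1), which compresses rare genes, their log2 fold changes of 0.93 and 0.54 were under the limit of 1. RPA2A-like, which encodes a single-strand DNA-binding protein, and ASF1A-like, a histone chaperone, had log2 fold changes of 0.48 and 0.81 that did not pass the test (edgeR adjusted p = 0.224 and 0.365).

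Of the other genes, Cyclin-B2-4-like, a B-type cyclin, rose from 16, 20, 8 and 12 counts to 77, 184 and 145 in lines 1 to 3 (log2 fold change 2.91, SE 0.38, edgeR adjusted p = 0.00330). ATK4-like, a kinesin, rose from 12, 7, 12 and 10 counts to 91, 105 and 120 (log2 fold change 3.04, SE 0.36, edgeR adjusted p = 0.00273). Both separated the groups fully. HTR12-like, the centromeric histone H3, lay lower in CPM in all 3 lines than in all 4 wild-type plants, as did 17.7% of all tested gene models, whereas the groups overlapped in TPM. Its log2 fold change of -0.57 passed neither limit (edgeR adjusted p = 0.1004). Cyclin-P3-1-like was at 0.654 to 1.09 CPM in wild type and 0.285 to 0.614 CPM in the lines, and did not pass (edgeR adjusted p = 0.131). The kinetochore gene spc25-like, the E2F partner DPB-like and the kinase subunit gene MNAT1-like had log2 fold changes of 0.35, 0.30 and 0.43, none of which passed. NACK1-like, a kinesin of cell plate formation, was too rare to be tested.

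**Figure D4:**
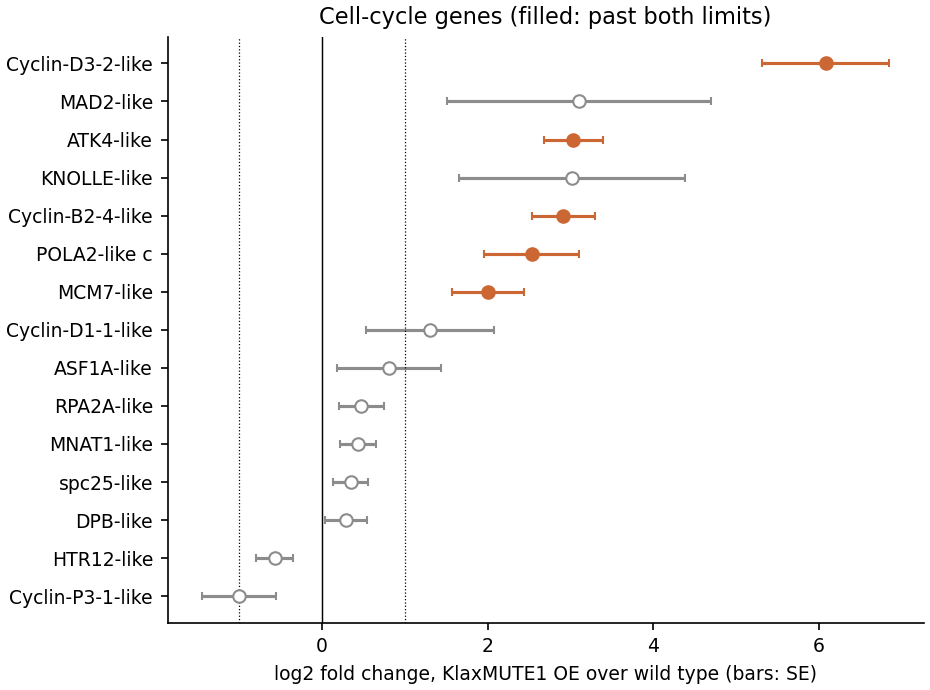
Log2 fold change (x axis, KlaxMUTE1 OE over wild type, with standard error bars) of cyclin D3-2-like and the 14 tested cell-cycle genes. Filled points passed an adjusted p of 0.1 and a log2 fold change of 1 (dotted lines), and cyclin D3-2-like, at 6.08, lies to the right of the 4 others that did.

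Line by line, the cell-cycle genes did not share 1 order. Cyclin-D1-1-like, the other D-type cyclin of the list, had the order 1, 3, 2 of cyclin D3-2-like, with 63, 8 and 33 counts in lines 1 to 3. Wild-type replicates 1 to 4 had 18, 8, 15 and 8 counts. Line 2 lay below all of them in CPM, but within counting error of the lowest. In TPM it was not below all of them, at 0.350 against a wild-type minimum of 0.341. Line 1 exceeded line 2 by 11.7-fold in CPM (exact 95% interval 5.60 to 28.3). Its log2 fold change between groups was 1.30 and did not pass the test (edgeR adjusted p = 0.239). Without line 2, its lowest line, the log2 fold change was 1.82 (edgeR adjusted p = 0.0550). That line was singled out after its values were seen, so this is not a separate test. MCM7-like also had the order 1, 3, 2. For it, line 1 exceeded line 2 by 1.95-fold (1.37 to 2.80), and neither gap to line 3 was larger than counting error.

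The 2 rarest mitotic genes tested ran the other way. KNOLLE-like, a syntaxin that forms the cell plate, was counted 0, 3, 6 and 2 times in the wild-type plants, and 0, 87 and 11 times in lines 1, 2 and 3. Line 2 exceeded line 3 by 6.15-fold in CPM (exact 95% interval 3.27 to 12.8), and was at least 19.5-fold above a floor of 3 counts in line 1. MAD2-like, a gene of the spindle checkpoint, was counted 0, 0, 2 and 0 times in the wild-type plants, and 0, 21 and 1 times in lines 1, 2 and 3. Both genes thus had most of their reads in line 2 (87 of 109 and 21 of 24), the line with the least KlaxMUTE2 and cyclin D3-2-like, and none in line 1, the line with the most. Their log2 fold changes between groups, 3.02 and 3.10, did not pass the test (edgeR adjusted p = 0.136 and 0.182). Without line 1 they were 3.58 and 3.65 (edgeR adjusted p = 0.0282 and 0.0866). That line, with 0 counts of both genes, was singled out after its values were seen, so this is not a separate test. Without line 2 the KNOLLE-like value was 0.81, and MAD2-like kept only 0 and 1 counts in lines 1 and 3, which is no rise over wild type.

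Cyclin-B2-4-like was likewise lowest in line 1. Lines 2 and 3 exceeded line 1 by 1.60-fold (exact 95% interval 1.22 to 2.12) and 1.63-fold (1.22 to 2.17) in CPM. They could not be separated from each other (ratio 0.987, 0.789 to 1.24). ATK4-like and spc25-like were instead highest in line 3 and lowest in line 2. For ATK4-like the ratio of line 2 to line 3 was 0.680 (0.519 to 0.892). Its lines 1 and 2 could not be separated (ratio 1.29, 0.964 to 1.73). For spc25-like, line 1 exceeded line 2 by 1.25-fold (1.06 to 1.48). Of the 14 tested genes, 28.6% had the order 1, 3, 2 and 21.4% the order 3, 2, 1, against 21.5% and 16.4% of all tested gene models. In wild type, 5 of the 14 were highest in replicate 1, or 35.7% against 30.5% of all tested gene models. Cyclin-D1-1-like was among them, at 1.03 CPM against 0.331 to 0.701 CPM in the other plants, while MCM7-like was lowest there, at 0.286 CPM against 0.742 to 0.841 CPM.

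**Figure D5:**
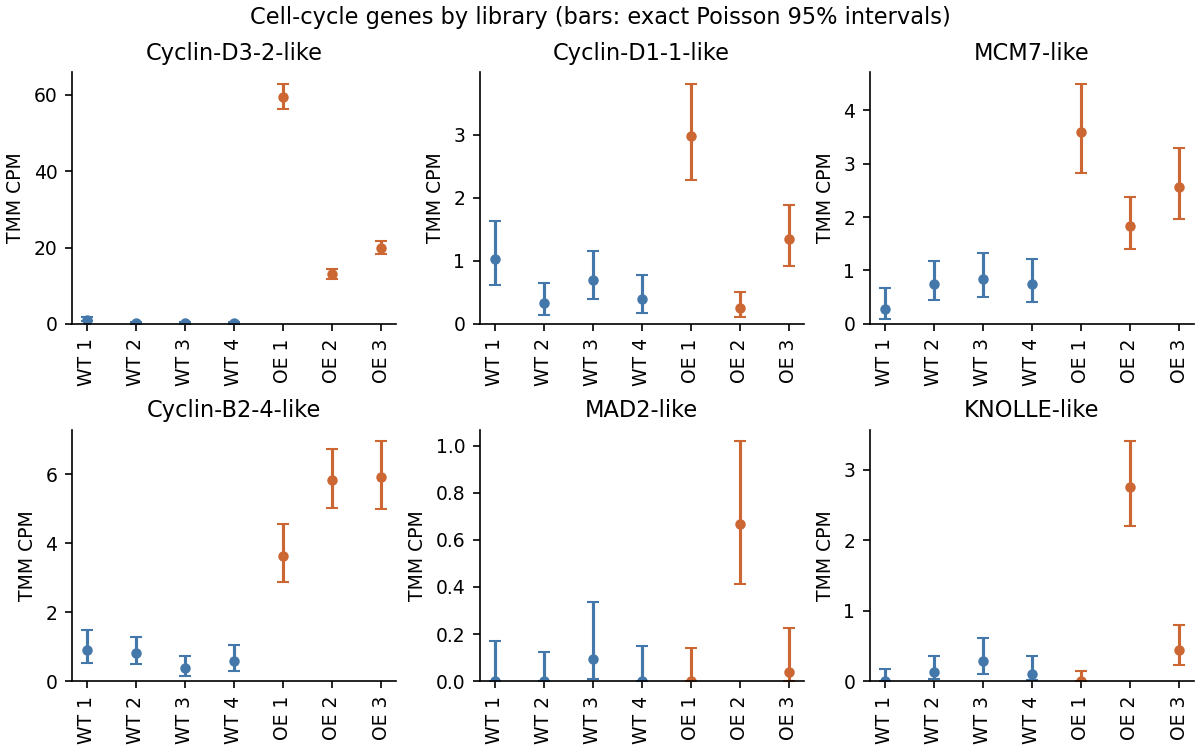
CPM after TMM scaling (y axis, linear, a separate scale for each panel) of 6 cell-cycle genes in the 4 wild-type and 3 KlaxMUTE1 OE libraries, with exact Poisson 95% intervals or, for a count of 0, an upper limit of 3 counts. Cyclin-D3-2-like, Cyclin-D1-1-like and MCM7-like are highest in line 1, whereas KNOLLE-like and MAD2-like have 0 counts in line 1 and 87 and 21 counts in line 2.

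Of 5 other bHLH genes of the stomatal lineage, none was called higher and 1 lower, beside background shares of 12.6% and 7.60%. KlaxFAMA2, the homolog of a factor that acts late in guard cell formation in Arabidopsis, had a log2 fold change of -1.19 (edgeR adjusted p = 0.0573). Its call was lost on both log2(TPM) scales, and without wild-type replicate 1, 2 or 4 or line 2 or 3 (edgeR adjusted p = 0.102 to 0.130). SCRM-like, similar to a partner of the stomatal bHLH factors in Arabidopsis, lay higher in all 3 lines than in all 4 wild-type plants, with a log2 fold change of 0.65 that was under the limit of 1 (edgeR adjusted p = 0.0805).

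The gene models most like each of the 3 were sought by the root mean square difference of log2(CPM + 0.5) over the 7 libraries, after centring each gene model on its mean. For KlaxMUTE1, no gene model was near, since the smallest difference was 2.38. Cyclin D3-2-like was its 30th nearest, at 3.38, and KlaxMUTE2 its 628th, at 4.68. For KlaxMUTE2, the nearest was KlGene010163, at 0.203, which has no annotation in the table used. The nearest annotated gene models were similar to the transporter gene SLC35F1 (0.302) and to EDR2 (0.435), a negative regulator of defence in Arabidopsis. EDR2-like showed the same low counts, with 3, 0, 0 and 0 in wild type and 289, 2 and 24 in lines 1 to 3. The value added before the logarithm compresses genes as rare as KlaxMUTE2, so that more abundant genes with smaller fold changes appear near it.

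For cyclin D3-2-like, the nearest was KlGene021023, at 0.292, with counts of 154, 103, 91 and 104 in the wild-type plants and of 7121, 2149 and 1891 in lines 1 to 3. The nearest annotated gene models were similar to PR5 (0.646), a pathogenesis-related protein, and to RAV1 (0.667), a transcription factor with AP2 and B3 domains. RAV1-like went from 8, 6, 1 and 1 counts to 351, 576 and 436 in lines 1 to 3, and so was raised almost evenly. KlaxMUTE2 was only the 352nd nearest to cyclin D3-2-like, at 1.33. These neighbours depended on the measure. With 2 added in place of 0.5, or with TPM in place of CPM, none of the 2 nearest gene models of KlaxMUTE2 or of cyclin D3-2-like was kept.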

How the data were processed

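RNA of the seventh leaf pair of 4 wild-type plants and 3 KlaxMUTE1 OE lines was enriched for mRNA, amplified by 15 PCR cycles and sequenced. The authors aligned them with HISAT2 to the OBG genome, and deposited raw counts per gene model made with htseq-count. Their versions and strand setting are not given in the sources. The deposited TPM values are counts per length, scaled within each library. Columns headed mean TPM hold mean counts and were not used.

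Counts were scaled by TMM and tested in R 4.3.3 with edgeR 4.0.16 (quasi-likelihood test, Benjamini-Hochberg adjusted, prior count 0.125). Gene models with fewer than 10 summed counts were dropped, which left 21902. The F statistic gave the standard errors. A call needed an adjusted p below 0.1 and a log2 fold change beyond 1 in size. Alternatives were DESeq2 1.42.0, limma 3.58.1 (voom, log2(TPM + 1) and log2(TPM + 0.1)), other scalings, filters and prior counts, the replicate number as a block, and each library left out. Ratios between libraries have exact 95% binomial intervals. Scripts were tested on simulated data. Genes named were the 3 members, the lists, and by rule the 2 nearest gene models and the 2 nearest annotated ones for each member, with at most 2 without annotation printed. Cell-cycle genes came from the annotation of 1190 gene models. Members and lists were chosen with earlier results of these data known. The p-values test the group difference against the spread between these samples. Nothing shows whether wild-type plants were grown together or with the lines, and differences in growth cannot be told apart from the group difference. No sequences were used here.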

Additional observations from a re-analysis of the deposited data

Results flagged for a closer look

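In the 4 wild-type libraries, 6 of 41 measures had 1 library far from the rest by Dixon's ratio of gap to range at its 95% critical value. Chance flags about 1 in 20 such groups when values vary continuously, a rate that does not hold where only 1 library has reads. For cyclin D3-2-like the ratio was 0.984, with replicate 1 at 1.14 CPM and the next plant at 0.248 CPM. For KlaxMUTE2 it was 1, a value fixed by the 0 counts of all plants but replicate 1, which was at 0.343 CPM. Cyclin-P3-1-like had a ratio of 0.865, with replicate 3 the lowest at 0.654 CPM and the next at 1.03 CPM. For POLA2-like b (1 count, replicate 2), MAD2-like (2 counts, replicate 3) and KlaxSPCH1 (1 count, replicate 3) the ratio was 1 because all other wild-type libraries were at 0.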

How the results depend on the processing

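KlaxMUTE1, KlaxMUTE2 and cyclin D3-2-like were called higher under all 18 alternatives. With single libraries left out, their log2 fold changes ran from 17.49 to 18.31, from 3.73 to 9.33 and from 5.18 to 6.93. Over all alternatives they ran from 11.06 to 18.39, from 2.03 to 9.33 and from 4.88 to 6.93, with the lowest of the first 2 genes on log2(TPM + 1). The KlaxMUTE1 value was 14.01 with a prior count of 2, since its wild-type counts are 0, and 15.72 with voom. The adjusted p reached 0.0153, 0.0890 and 0.0164. Leaving out line 1 and wild-type replicate 1 together was chosen after seeing the data and gave 18.39, 7.72 and 6.06. The deviations of same-numbered libraries from their group means correlated at 0.108, 0.051 and 0.091, against -0.138 to 0.074 for differently numbered ones. These correlations were weak, and the ranges overlapped. The labels do not say whether equal replicate numbers mark paired samples, and this was not tested. With the replicate number as a block the log2 fold changes were 18.03, 5.24 and 5.88, the gene models called higher fell from 2761 to 1534, and MCM7-like and KlaxFAMA2 missed the limit (adjusted p = 0.106 and 0.129). With limma on log2(TPM + 1) and log2(TPM + 0.1), 834 and 1107 gene models were called lower in place of 1665. On log2(TPM + 1), 2 cell-cycle genes were called higher in place of 4, without MCM7-like and POLA2-like c. Leaving out single libraries gave 4 to 6 such genes, 1913 to 2748 gene models higher and 1289 to 1863 lower. The share of higher calls was 62.4%, and 74.8%, 73.9% and 76.0% with library size alone, log2(TPM + 1) and log2(TPM + 0.1), where the median log2 fold change was 0.27, 0.25 and 0.33 in place of 0.07. The ratio of line 3 to line 1 for KlaxMUTE1 was 2.84, and 2.90, 2.93 and 3.07 with RLE, library size alone and TPM. The ratio of line 1 to line 2 for cyclin D3-2-like was 4.59, and 4.05 and 3.81 with library size alone and TPM. KlaxMUTE2, KNOLLE-like and MAD2-like have few reads in most libraries, which limits their values.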
